A study of Mus musculus with 12 samples.

Results

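The enzymes and transporters described here supply proline, serine, glycine, asparagine and other amino acids to the cell. They were taken as a list of 10 genes: Aldh18a1, Pycr1, Phgdh, Psat1, Shmt2, Mthfd2, Asns, Slc7a5, Slc3a2 and Slc1a5. The 10 genes were chosen with earlier results of these data known. They are 10 of the 54100 gene rows in the count table, and 9 of them had enough counts to be tested (Phgdh did not). The cells were fibro-adipogenic progenitors (FAPs), Pdgfra-positive mesenchymal cells that lie between muscle fibres. They were sorted from the mouse plantaris muscle after overload or a sham operation, in 4 groups of 3 libraries, with 1000 cells sorted into each tube. Mice of all 4 groups carried Pdgfra-CreERT2, a Cre recombinase that tamoxifen activates, driven from the Pdgfra locus. Control mice carried that driver alone. The conditional double knockout mice (cdKO) also had both Yap1 and Taz floxed (flox/flox, with Taz listed as Wwtr1), the co-activators that the Hippo pathway restrains. The sources used here do not give the age and sex of the mice, the drug schedule, the time after surgery or any pooling of animals. No label says that the libraries of a group came from separate animals, so p-values cover the spread from library to library alone, and that spread could be technical.

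A cell makes proline from glutamate: the product of Aldh18a1 forms pyrroline-5-carboxylate and that of Pycr1 reduces it to proline. Serine is drawn from glycolysis by the products of Phgdh, Psat1 and Psph in turn, and the mitochondrial enzymes of Shmt2 and Mthfd2 then split serine into glycine and a one-carbon unit carried on folate. Fibroblasts are known for a high demand for glycine and proline, because the collagen triple helix is built on a repeat of glycine often followed by proline. The transcription factor ATF4, translated when amino acids run short or the endoplasmic reticulum is stressed, is known to drive many of these genes.

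ATF4 and its C/EBP partners bind a composite element, written TGATGNAA. Promoters (250 bases before to 50 after the transcription start, RefSeq on GRCm38.p6) were found for 8 of the 10 genes, and none was found for Slc7a5 and Slc1a5. Both strands were searched. The 8 genes had 9 promoters. The element was present in the promoters of Asns and Pycr1, which makes 2 of 8 genes or 2 of 9 promoters, and in 3.97% of all 32851 promoters. The 2 stretches are shown because Asns and Pycr1 are the members that hold this element, with the element in capitals. Asns lies at chr6:7693210-7693258 and Pycr1 at chr11:120643818-120643877, both read from the minus strand. The element starts 23 bases before the RefSeq start of Asns and 103 bases before that of Pycr1. The gene spans given below are from GENCODE M21, and their starts can differ from the RefSeq ones. The GENCODE start of Asns (7693254) lies inside the printed stretch, so the element falls within that span. The scanned promoters of Psat1 and Mthfd2 also lie inside their GENCODE spans.
Asns: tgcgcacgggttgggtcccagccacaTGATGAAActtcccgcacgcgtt
Pycr1: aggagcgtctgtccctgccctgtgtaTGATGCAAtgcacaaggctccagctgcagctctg
The E-box CACGTG was present in the promoter of Aldh18a1 and in 7.15% of all promoters. The box CCAAT was present in those of Mthfd2, Phgdh, Psat1 and Pycr1 and in 37.4% of all promoters. GGAATG, the motif of the TEAD factors that YAP and TAZ bind, was in 0 of the 9 promoters of these genes and in 14.7% of all promoters. No 2 matches of different motifs overlapped in these promoters. These matches describe letters within a short window only.

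Library totals ran from 336437 counts (control sham 3) to 1564581 (control overload 2), so 3 counts correspond to between 1.92 and 8.92 CPM (counts scaled to a common library size). Levels below are CPM scaled by TMM factors. Because the labels cite a protocol that tags 3′ ends, CPM values of the same gene are compared between groups, and levels of single genes are not ranked against each other. The marker sums and the residue shares below do combine levels over genes. The residue shares take it that counts do not scale with length. In the targeted genes, Wwtr1 stood at 108.0 to 174.0 CPM in the 6 control libraries and at 18.2 to 40.6 in the 6 cdKO libraries, with no overlap. Yap1 stood at 39.7 to 108.1 in control libraries and at 22.1 to 71.5 in cdKO libraries, and its genotype difference did not pass in sham (adjusted p = 0.999) or overload (adjusted p = 0.586). Which exons are floxed is not stated in the sources used here, and counts at the 3′ end may lie outside them. All 8 progenitor markers (Pdgfra, Ly6a, Cd34, Pdgfrb, Dcn, Lum, Col1a1 and Dpt) were detected in each group. Their summed level was 31144 to 41876 CPM in control sham and 16517 to 20792 in control overload. In the cdKO groups the sum was 26173 to 38274 and 21665 to 27902. Dcn had the most counts of the 8 (119744 over the 12 libraries), so the sum does not show the course of each marker. By group means Col1a1 rose, from 3759 to 10125 CPM in control and from 5436 to 12235 in cdKO. Pdgfra went from 522.5 to 375.8 CPM in control and from 685.9 to 324 in cdKO. In edgeR that fall passed in cdKO (adjusted p = 0.0062) and not in control (adjusted p = 0.186). Endothelial markers (6 of 6 detected) summed to 103.9 to 150.9 CPM in sham and 18.2 to 86.2 in overload for control, and to 64.2 to 158.5 and 38.2 to 57.2 for cdKO. Myeloid markers (6 in the list) summed to 39.7 to 51.8, 7.14 to 56.9, 21.9 to 36.7 and 6.74 to 48.1 CPM in the same order, with Lyz2 at 0 counts in all groups but cdKO overload. Pericyte and smooth muscle markers (6 of 6 detected) summed to 105.8 to 124.4 CPM in sham and 71.4 to 93.0 in overload for control, and to 98.99 to 126 and 81.9 to 83.2 for cdKO. Erythroid markers (5 in the list) summed to 0 to 4.50 and 12.3 to 280.8 CPM for control, and to 5.50 to 129.5 and 0 to 1.123 for cdKO, with Hba-a1, Hbb-bt and Alas2 at 0 counts in control sham and cdKO overload, and Hba-a2 also in the latter. Myofibre markers (6 in the list) summed to 69.7 to 117.1 and 11.7 to 74.1 CPM for control, where Myh1 was at 0 counts in overload, and to 54.1 to 139.2 and 33.7 to 71.1 for cdKO. Lists of muscle stem cell, lymphocyte and Schwann markers summed to 29.3 CPM or less in each library. Mitochondrial counts made up 7.39% to 10.2% of control sham and 8.44% to 11.6% of control overload libraries, and 11.6% to 14.0% and 8.60% to 10.2% of the cdKO ones. The part of these shifts in the results below was not tested. Control overload 2 and 3 held 72.7 and 88.7 CPM of Y-linked counts, against 131.2 to 336.8 in the other libraries. On the first principal component, control overload 1 and cdKO overload 2 lay nearest to the sham libraries.

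Psat1 of the serine route, Shmt2 and Mthfd2 of the one-carbon route and Asns rose under overload in FAPs of both genotypes. In control FAPs 5 of the 9 tested genes rose (Psat1, Shmt2, Mthfd2, Asns and Slc7a5) and 1 fell (Slc1a5), where 10.6% of all 8161 genes rose and 11% fell. In cdKO FAPs 6 of 9 rose (Psat1, Shmt2, Mthfd2, Asns, Pycr1 and Aldh18a1) and 0 fell, where 6.37% of all genes rose and 6.68% fell. A gene passed at an adjusted p under 0.05 in edgeR's quasi-likelihood test with Benjamini-Hochberg adjustment over all 8161 genes. Sham and overload libraries did not overlap for 7 of the 9 genes in control and 8 of 9 in cdKO, against 36.9% and 30% of all genes. The median log2 fold change of the 9 was 1.62 in control and 1.43 in cdKO, beside -0.05 and -0.02 for all genes. Because the list was chosen with earlier results of these data known, its counts beside all genes are a description and no independent support. In bulk libraries, fewer cells that express a gene and less RNA per cell cannot be told apart. Psat1, Shmt2 and Mthfd2 in control passed in each of 22 other fits, among them those that left out each library in turn.

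**Figure D1:**
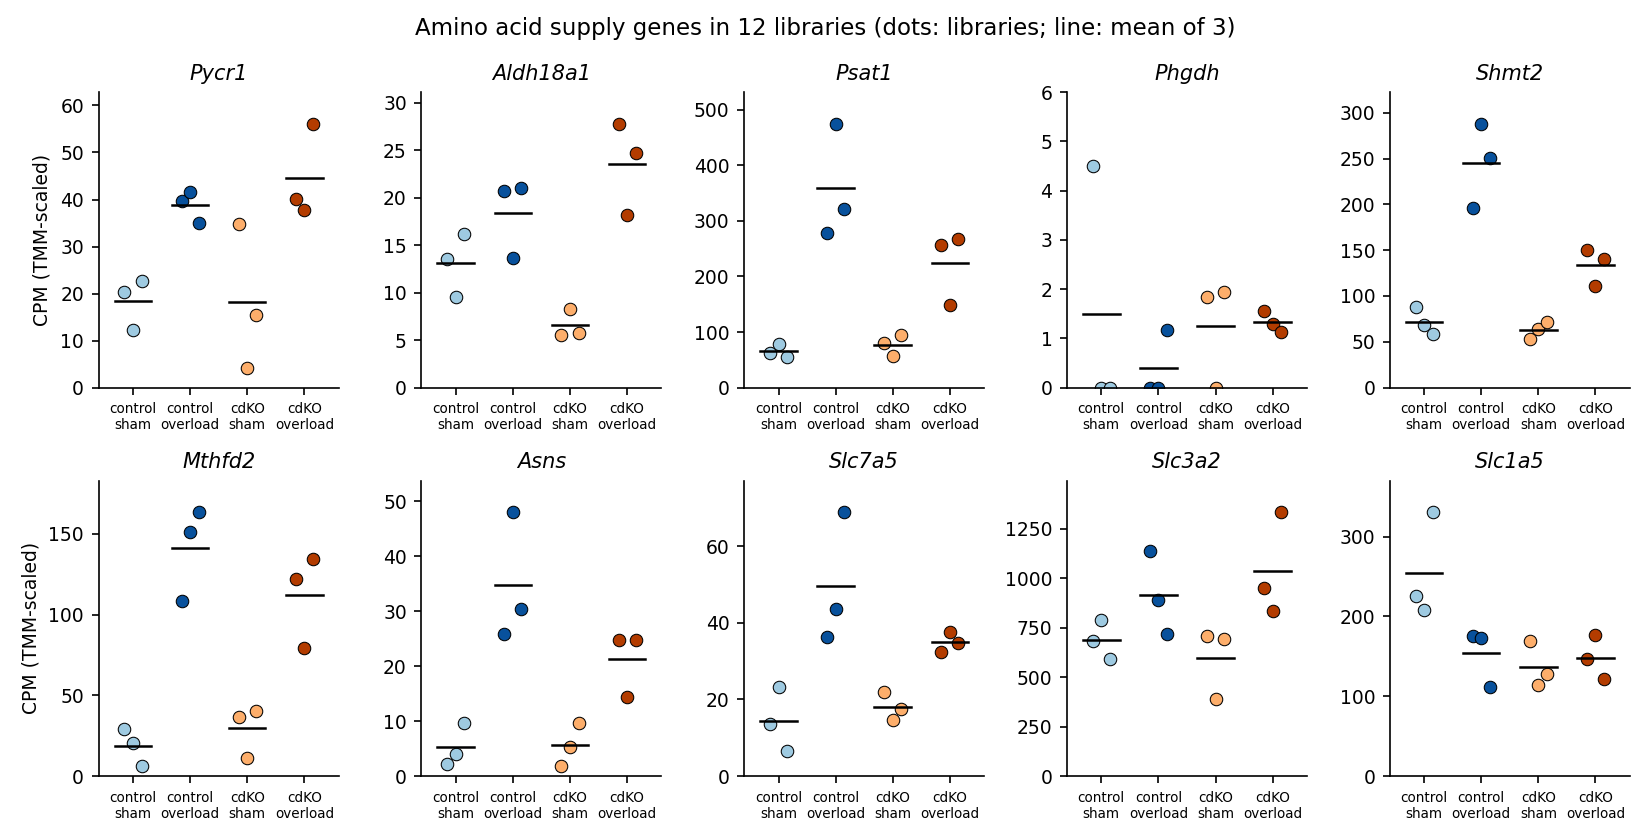
Level of each of the 10 genes (vertical axis, TMM-scaled CPM, linear scale from 0) in the 12 libraries, by genotype and load on the horizontal axis; dots are libraries and the line is the mean of 3. Psat1, Shmt2, Mthfd2 and Asns are higher in all 3 overload libraries than in all 3 sham libraries of the same genotype, whereas Slc1a5 is highest in control sham and Phgdh stays at 0 to 2 counts per library.

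Both members of the proline route rose in cdKO FAPs, and neither passed in control. Aldh18a1 (chromosome 19, 40550257 to 40588463, minus strand), the enzyme of the first committed step, had 13.5, 9.57 and 16.2 CPM in control sham and 20.7, 13.6 and 21.01 in control overload. In cdKO it had 5.50, 8.33 and 5.80 CPM in sham and 27.8, 18.2 and 24.7 in overload. The cdKO loads were well separated, whereas the control loads overlapped because control overload 2 lay within the sham range. The log2 fold change was 1.77 ± 0.47 (SE, 3 against 3 libraries) in cdKO, with an adjusted p of 0.0132, and 0.52 ± 0.46 in control, with an adjusted p of 0.442. The difference between these changes was 1.25 ± 0.66 (95% interval -0.05 to 2.54) and did not pass (adjusted p = 0.940). The cdKO call was lost in 4 of 21 other fits: limma voom, no filter on low counts, and without cdKO overload 1 or 3 (highest adjusted p = 0.0667). These values rest on 3 to 22 counts per library.

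Pycr1 (chromosome 11, 120635712 to 120643769, minus strand), the mitochondrial reductase of the last step, had 20.3, 12.3 and 22.7 CPM in control sham and 39.6, 41.5 and 35.0 in control overload. All 3 overload libraries were above all 3 sham libraries, yet the change of 1.15 ± 0.47 did not pass (adjusted p = 0.0797). It passed in 3 of 22 other fits: with only the groups compared, and without cdKO sham 1 or cdKO sham 2 (lowest adjusted p = 0.0257). In cdKO sham it had 34.8, 4.17 and 15.5 CPM, the widest spread of its 4 groups, and in cdKO overload 40.2, 37.7 and 56.1. The cdKO sham 1 library lay just under the overload libraries. The cdKO change was 1.43 ± 0.45 (adjusted p = 0.0349). That call was lost in 9 of 22 other fits, among them DESeq2, only the groups compared, and counts thinned to the smallest library. It was also lost without cdKO sham 2, the lowest library, where the change fell to 0.80. The rest were the fits without control sham 1, control overload 3, cdKO sham 3, or cdKO overload 1 or 3. The interaction was 0.28 ± 0.66 (adjusted p = 0.987).

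In the serine route, Phgdh (chromosome 3, 98313170 to 98339990, minus strand), the first enzyme, was barely detected. It had 2, 0 and 0 counts in control sham and 0, 0 and 1 in control overload. In cdKO it had 1, 0 and 1 counts in sham and 1, 1 and 1 in overload. These values are at or under the floor of 3 counts, so no change could be measured at this depth. Among the 10 genes, Phgdh alone had a last stretch of 500 transcript bases that matched other genes at 95% identity or more over at least 200 bases. The matches were 7 processed pseudogenes, each with 0 to 3 counts over the 12 libraries, so reads shared with them could have been lost in counting and the level is uncertain.

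Psat1 (chromosome 19, 15904678 to 15947337, minus strand), the aminotransferase of the next step, was well counted. Control sham libraries had 63.1, 79.3 and 55.1 CPM and control overload libraries 279.1, 475.1 and 322.2. In cdKO the values were 80.7, 56.2 and 94.7 in sham and 256.5, 148.2 and 267.2 in overload. Every overload library exceeded every sham library, and the 3 control overload libraries all stood above the 3 cdKO overload libraries. Its log2 fold change was 2.42 ± 0.30 in control (5.36-fold, adjusted p = 3.16e-06) and 1.56 ± 0.29 in cdKO (2.94-fold, adjusted p = 0.000806). The interaction of -0.86 ± 0.41 had an unadjusted p of 0.0441 in edgeR and an adjusted p of 0.931, so a smaller rise in cdKO was not established.

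The mitochondrial one-carbon pair rose in both genotypes. Shmt2 (chromosome 10, 127517123 to 127522444, minus strand), which splits serine into glycine and a folate-bound carbon, had 87.8, 68.4 and 58.3 CPM in control sham and 196.4, 288.2 and 251.0 in control overload. Its cdKO values were 53.2, 63.5 and 71.5 in sham and 149.9, 110.5 and 140.3 in overload. The groups formed 3 separate levels, with both shams lowest and overlapping, cdKO overload between, and control overload highest. The changes were 1.77 ± 0.25 in control (adjusted p = 1.97e-05) and 1.09 ± 0.25 in cdKO (adjusted p = 0.00552). Between the overloaded groups, cdKO was lower by -0.88 ± 0.23 on the log2 scale, with an unadjusted p of 0.000772 in edgeR and an adjusted p of 0.304. That difference passed in 1 of 22 other fits, the one without control overload 1 (-1.08, adjusted p = 0.0401). The 3′ end of Shmt2 overlaps that of Ndufa4l2 on the opposite strand (188 counts over the 12 libraries), and the sources used here give no strand setting, so their reads cannot be told apart where they overlap.

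Mthfd2 (chromosome 6, 83305691 to 83325908, minus strand), which oxidises the folate-bound carbon, rose in every overload library above the sham range. It had 29.3, 20.5 and 6.48 CPM in control sham and 108.5, 151.2 and 163.4 in control overload. Its cdKO libraries had 36.7, 11.5 and 40.6 CPM in sham and 122.1, 79.3 and 134.7 in overload. Loads were apart in both genotypes, and the overload groups overlapped each other. The log2 fold change was 2.83 ± 0.41 in control (7.09-fold, adjusted p = 3.35e-05) and 2.01 ± 0.38 in cdKO (4.04-fold, adjusted p = 0.00117). The interaction was -0.81 ± 0.57 (adjusted p = 0.940). Both calls passed in each of 22 other fits. Mthfd2 and Psat1 also overlap predicted genes, Gm43890 (43 counts over the 12 libraries) and Gm3329 (14 counts).

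Asns (chromosome 6, 7675169 to 7693254, minus strand), which makes asparagine from aspartate and glutamine, was close to the detection floor in sham. It had 2.25, 4.10 and 9.72 CPM in control sham (1 to 3 counts a library) and 25.8, 48.0 and 30.4 in control overload. Its cdKO levels were 1.83, 5.21 and 9.67 CPM in sham and 24.7, 14.3 and 24.7 in overload. Overload libraries were above sham libraries in both genotypes, and the control overload libraries stood above those of cdKO overload. The changes were 2.85 ± 0.55 in control (adjusted p = 0.000604) and 1.93 ± 0.53 in cdKO (adjusted p = 0.0170). The control call passed in all 21 other fits that tested the gene. The cdKO call was lost in 5 of 21, which included leaving out cdKO sham 1 or 2 or cdKO overload 1 or 3. Between the overloaded groups the difference was -0.75 ± 0.40 (95% interval -1.53 to 0.04, adjusted p = 0.778).

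The transporters did not move as a block. Slc7a5 (chromosome 8, 121881150 to 121907694, minus strand), the light chain of the exchanger for leucine and other large neutral amino acids, had 13.5, 23.2 and 6.48 CPM in control sham and 36.2, 43.5 and 68.9 in control overload. Among cdKO libraries it had 22.0, 14.6 and 17.4 CPM in sham and 32.4, 37.7 and 34.8 in overload. Loads were apart in both genotypes. The change passed in control (1.62 ± 0.39, adjusted p = 0.00362) and not in cdKO (0.99 ± 0.38, adjusted p = 0.0845), and the interaction of -0.64 ± 0.55 (adjusted p = 0.963) did not show that the genotypes differ. With counts thinned to the smallest library the control change was 1.27 and no longer passed.

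Its partner Slc3a2 (chromosome 19, 8706882 to 8723369, minus strand), the CD98 heavy chain that carries Slc7a5 and other light chains to the surface, did not pass in either genotype. It had 684.6, 788.8 and 592.9 CPM in control sham and 1139, 889.3 and 715.6 in control overload, which overlap. In cdKO it had 707.6, 387.3 and 693.9 CPM in sham and 948.6, 832.1 and 1333 in overload, which do not overlap. The change was 0.40 ± 0.28 in control (adjusted p = 0.307) and 0.80 ± 0.28 in cdKO (adjusted p = 0.0541). The cdKO change passed in 6 of 22 other fits, among them DESeq2 and the fit without cdKO overload 2.

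Slc1a5 (chromosome 7, 16781340 to 16798274, plus strand), an exchanger of glutamine and other small neutral amino acids, was the member that fell. It had 225.2, 207.8 and 330.5 CPM in control sham and 175.7, 173.3 and 112.1 in control overload. The control sham libraries stood above those of the other 3 groups, which overlapped: cdKO had 168.7, 114.5 and 127.6 CPM in sham and 146.8, 176.8 and 121.2 in overload. The control change of -0.71 ± 0.26 just passed (adjusted p = 0.0479). That call was lost in 15 of 22 other fits, DESeq2 among them, and the change was -0.45 without control sham 3, the highest library. The cdKO change was 0.12 ± 0.26 (adjusted p = 0.826). In sham, cdKO was lower than control by -0.89 ± 0.26 with an unadjusted p of 0.00231 in edgeR and an adjusted p of 0.999. The interaction was 0.83 ± 0.37, with an unadjusted p of 0.0313 and an adjusted p of 0.927.

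**Figure D2:**
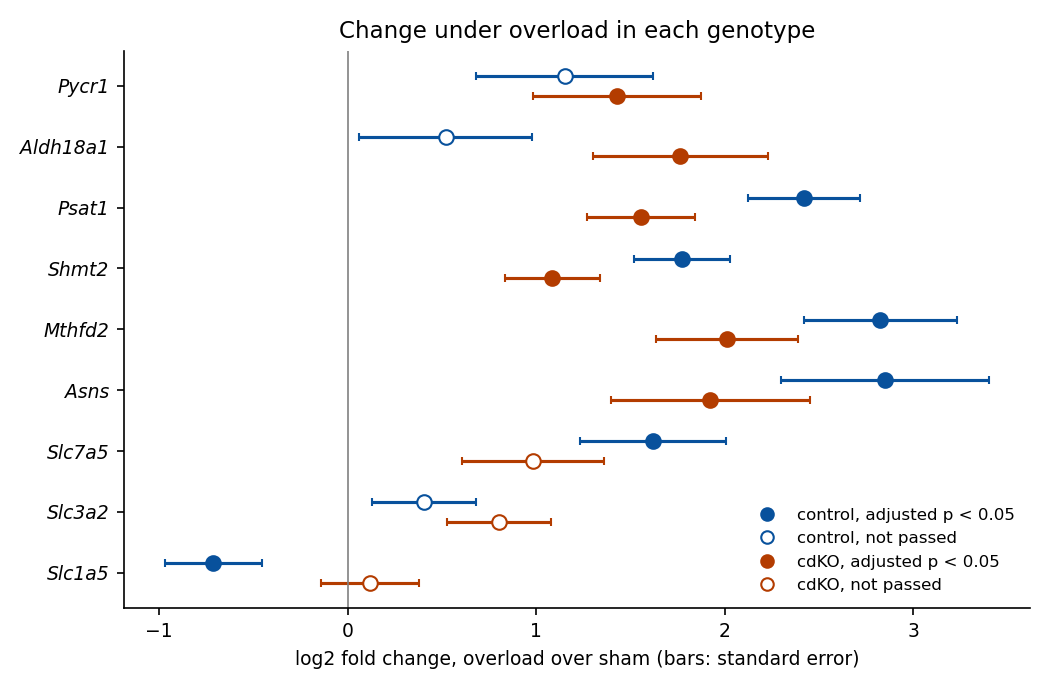
Log2 fold change of overload over sham (horizontal axis) for the 9 tested genes in control (blue) and cdKO (orange); points are edgeR estimates, bars are 1 standard error, and filled points passed an adjusted p under 0.05. The 4 genes Psat1, Shmt2, Mthfd2 and Asns are filled in both genotypes, Pycr1 and Aldh18a1 in cdKO, and Slc7a5 and Slc1a5 in control.

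Genotype itself gave no call among these genes. Of the 9 tested, 0 differed between cdKO and control in sham, where 0.0123% of all genes (1 gene) did. In overload 0 differed as well, where 0.0368% (3 genes) did. The interaction called 0 members and 0% of all genes in edgeR. At an unadjusted p under 0.05 these 3 comparisons held 1, 2 and 2 of the 9 genes and 334, 569 and 427 of all genes, and DESeq2 and limma voom called 0 members in each. In overload 6 of the 9 genes were lower in cdKO, with a median log2 difference of -0.34 beside 0.03 for all genes. The overloaded groups did not overlap for 3 of the 9 (Shmt2, Psat1 and Asns, each lower in cdKO), against 10.7% of all genes, and the sham groups for 2 of the 9, against 9.89%. These comparisons share libraries with the overload comparisons above.

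The member levels followed a common course over the 12 libraries, with 1 exception. Against the mean of the 9 standardised log2 levels, Pearson's r was 0.94 for Psat1, 0.90 for Shmt2 and Mthfd2, 0.86 for Pycr1 and Asns, 0.82 for Slc3a2, 0.79 for Slc7a5 and 0.77 for Aldh18a1. It was -0.18 for Slc1a5. Each gene is part of that mean, and all points share the load groups, so these values are descriptions. Once group means were removed, the course was not common to all pairs: r ran from -0.56 (Slc7a5 and Slc1a5) to 0.68 (Psat1 and Mthfd2). It was 0.61 between Psat1 and Shmt2 and -0.47 between Asns and Slc7a5. For Aldh18a1 it was -0.52 with Slc7a5, -0.39 with Mthfd2 and -0.35 with Psat1, and positive with Asns alone (0.18). Outside the list, the 8 protein-coding genes with the most similar course were Aldh1a2 (r = 0.983), Cd44 (0.975), Ppa1 (0.974), Thbs1 (0.969), Timp1 (0.968), Serp1 (0.966), Slc39a14 (0.965) and Dad1 (0.964). Timp1, an inhibitor of matrix metalloproteases, had a median of 13.4 CPM over the 6 sham libraries and 1330 over the 6 overload libraries. Aldh1a2, the retinoic acid synthase, had 286.9 and 890.2.

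The neighbouring pathways were described by lists of genes taken by name, chosen with earlier results of these data known. Over all 8161 genes 10.6% rose and 11% fell in control, and 6.37% and 6.68% in cdKO. In the proline and glutamate route 3 of 12 tested genes rose in control and 1 fell, with a median of 0.12. Ass1, the argininosuccinate synthase of the arginine route, went from 4.57 ± 1.87 (SD, n = 3) to 22.8 ± 6.38 CPM in control (adjusted p = 0.00341). Arg1, the arginase that forms ornithine, had 1 count in the 3 control sham libraries and 65 in the 3 control overload libraries, a ratio per total count of 33.9 with a 95% counting interval of 5.88 to 1360. It also rose in cdKO, from 3.55 ± 0.38 to 19.2 ± 16.1 CPM (adjusted p = 0.0395), although the groups overlapped: the lowest overload library (2.60 CPM, 2 counts) was below the 3 sham libraries (3.12 to 3.87 CPM). Glul, the glutamine synthetase, fell in both genotypes, from 686.6 ± 205.2 to 187.5 ± 26.1 CPM in control (adjusted p = 1.03e-05) and from 532.4 ± 15.7 to 266.2 ± 24.98 in cdKO (adjusted p = 0.00860). In cdKO 2 of 12 rose and 1 fell, with a median of 0.35. The second to rise there was Got1, an aspartate aminotransferase, from 61.3 ± 20.7 to 132.9 ± 36.7 CPM. Got1 is named after its values were seen. The control counts were 5 rising and 2 falling without control overload 1. The cdKO count of risers was 1 without control overload 3, cdKO sham 1 or 3 or cdKO overload 1, and 0 without cdKO sham 2 or cdKO overload 3, and Glul did not pass there without cdKO overload 1.

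Few other genes of serine and folate metabolism could be tested or passed. In the serine and glycine list 3 of 12 genes were tested: Psph, the phosphatase of the last step of serine synthesis, rose in control from 9.64 ± 5.98 to 26.5 ± 11.04 CPM (adjusted p = 0.0208). In cdKO it had 13.5 ± 3.04 and 23.3 ± 6.74 CPM, and 0 of the 3 passed. In the folate list 1 of 9 tested genes rose in control and 1 fell, near the shares of all genes (10.6% and 11%). Mthfd1l, the mitochondrial formyl-folate synthetase that follows Mthfd2, went from 6.11 ± 3.13 to 20.8 ± 9.39 CPM (adjusted p = 0.0237). Mat2a, which makes S-adenosylmethionine, fell from 1054 ± 295 to 472.1 ± 145.5 CPM (adjusted p = 0.00281). In cdKO 0 of the 9 passed. Without control sham 1 or 2 or control overload 2 or 3, 0 genes of either list rose in control, and without control overload 1 the folate list had 3 that rose. Without any one of the cdKO libraries except cdKO overload 3, the folate list had 2.

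In the list of other amino acid transporters 4 of 15 tested genes rose in control and 2 fell, with a median of -0.02. The shares of all genes there were 10.6% and 11%. Slc7a11, the cystine importer, rose in control from 23.1 ± 8.25 to 50.6 ± 5.07 CPM (1.17 ± 0.38, adjusted p = 0.0295). In cdKO it rose from 14.3 ± 6.52 to 90.1 ± 34.5 CPM (2.75 ± 0.38, adjusted p = 4.31e-05). The difference between these changes was 1.58 ± 0.56 and did not pass (adjusted p = 0.814). The taurine transporter Slc6a6 rose in control from 83.0 ± 11.6 to 147.9 ± 5.74 CPM (adjusted p = 0.0306), and Slc38a10 passed as well (0.78 ± 0.27, adjusted p = 0.0391). Slc43a3 fell in control from 299.1 ± 100.8 to 127.2 ± 23.9 CPM (adjusted p = 0.00129) and in cdKO from 239.2 ± 10.8 to 136.1 ± 28.2 (adjusted p = 0.0382). Slc43a3 stands in this list by its family name and is not taken here as an amino acid carrier. Slc43a1, a carrier of large neutral amino acids, fell in control (-1.41 ± 0.48, adjusted p = 0.0389). In cdKO 2 of 15 rose and 1 fell, beside 6.37% and 6.68% of all genes. In control 0 rose without control sham 2 or 3 or control overload 3, and 1 without control sham 1 or control overload 2. The number that fell there was 1 without control sham 2 or 3, control overload 2 or 3 or cdKO overload 1. The fall of Slc43a3 in cdKO was lost without control sham 3 or any one of the 6 cdKO libraries.

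The cytosolic tRNA synthetases, which load amino acids onto tRNA for protein synthesis, gave the highest count of the lists. All 20 were tested, and in control 13 rose and 0 fell, with a median log2 fold change of 1.261. In cdKO 8 rose and 0 fell, with a median of 0.89. Of all genes 10.6% rose in control and 6.37% in cdKO. Gars, which loads glycine, rose from 34.9 ± 12.4 to 162.9 ± 47.8 CPM in control (2.32 ± 0.36, adjusted p = 6.99e-05) and from 38.1 ± 4.45 to 106.9 ± 48.7 in cdKO (1.5 ± 0.34, adjusted p = 0.00551). Eprs, whose product loads both glutamate and proline, rose from 125.8 ± 17.0 to 380.1 ± 46.5 CPM in control (adjusted p = 0.000105) and from 182 ± 53.7 to 341.9 ± 72.7 in cdKO (adjusted p = 0.0167). Kars, which loads lysine, went from 44.5 ± 14.2 to 139.7 ± 7.83 CPM in control (adjusted p = 8.23e-05). Yars, which loads tyrosine, had 21.7 ± 13.4 and 19.5 ± 5.42 CPM in control and was the only one with an estimate below 0 in both genotypes. Yars is named after its values were seen. The control count ranged from 8 to 14 over 22 other fits, with 8 when the deepest and the shallowest library (control overload 2 and control sham 3) were left out and 9 without control sham 2 or control overload 2. The cdKO count ranged from 3 to 10, with 3 without cdKO sham 2 or cdKO overload 1 and 4 without cdKO sham 1 or 3 or cdKO overload 3.

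**Figure D3:**
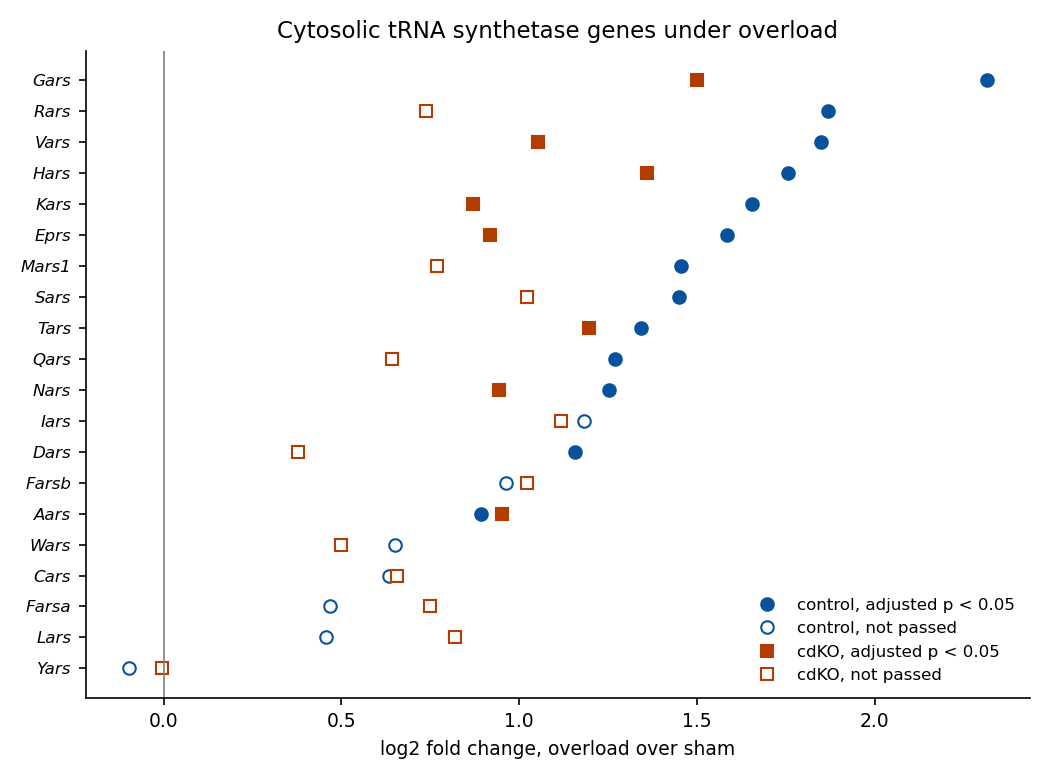
Log2 fold change of overload over sham (horizontal axis) for the 20 cytosolic tRNA synthetase genes, ordered by the control value, with circles for control and squares for cdKO; filled symbols passed an adjusted p under 0.05. In control 13 symbols are filled and in cdKO 8, and all filled symbols lie to the right of 0.

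Regulators of the amino acid response moved in both directions. Of 18 tested genes 4 rose and 5 fell in control, and 3 rose and 4 fell in cdKO. The medians were -0.14 and 0.03. Of all genes 10.6% rose and 11% fell in control, and 6.37% and 6.68% in cdKO. Chac1, a glutathione-degrading enzyme, had 1 count in the 3 control sham libraries and 87 in the 3 control overload libraries. The ratio per total count was 45.4, with a 95% counting interval of 7.94 to 1814. In cdKO Chac1 had 2 and 45 counts, a ratio of 20.1 (5.26 to 171.3). The fitted test called Chac1 in both genotypes (adjusted p = 0.00223 and 0.00929). Eif4ebp1, a translation repressor, rose from 14.6 ± 4.36 to 46.2 ± 14.7 CPM in control (adjusted p = 0.00299) and from 11.5 ± 5.97 to 29.7 ± 4.68 in cdKO (adjusted p = 0.0432). Eif2s1, the phosphorylated subunit of the initiation factor that controls ATF4 translation, rose in both genotypes by 1.21 ± 0.30 and 1.10 ± 0.30.

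Other genes of that list fell. Atf3, a stress-induced transcription factor, fell from 672.5 ± 63.2 to 189.6 ± 86.5 CPM in control (adjusted p = 0.000128) and from 561.3 ± 116.4 to 226.8 ± 84.5 in cdKO (adjusted p = 0.00531). Vldlr, a lipoprotein receptor, fell from 122.2 ± 37.8 to 34.4 ± 7.49 CPM in control (adjusted p = 8.39e-05), and Jdp2, a transcriptional repressor, from 130 ± 23.6 to 50.9 ± 11.7 (adjusted p = 0.000707). Both also fell in cdKO. Atf4 mRNA itself did not pass: it had 1602 ± 109.8 CPM in control sham and 1132 ± 110.3 in control overload, and 1497 ± 267.8 and 1136 ± 133.2 in the cdKO groups. Atf4 is named after its values were seen, and its protein is set largely by translation, which these data do not measure. Without both control overload 2 and control sham 3, 2 genes of the list rose in control. In cdKO 1 rose without cdKO sham 1 or 2 or cdKO overload 1 and 0 without cdKO overload 3, and the number that fell was 2 without cdKO sham 2 or cdKO overload 3 and 1 without cdKO overload 1.

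The mTORC1 list held genes of the kinase complex that senses amino acids. In control 2 of 16 rose and 1 fell, near the shares of all genes (10.6% and 11%), with a median of 0.22. Eif4ebp1 was 1 of the 2 that rose. Rheb, the small GTPase that activates the complex, rose by 0.82 ± 0.26 (adjusted p = 0.0257), and Deptor, an inhibitor of the complex, fell from 59.2 ± 12.2 to 15.5 ± 15.1 CPM (adjusted p = 0.00301). In cdKO 2 of 16 rose and 0 fell, beside 6.37% and 6.68% of all genes. Of the breakdown genes 1 of 9 rose in control and 1 fell, also near the shares of all genes (10.6% and 11%). Bcat1, the cytosolic branched-chain aminotransferase, rose from 7.86 ± 6.82 to 100.8 ± 12.7 CPM in control (3.44 ± 0.60, adjusted p = 0.000663) and from 14.7 ± 14.8 to 72.2 ± 21.6 in cdKO (2.49 ± 0.55, adjusted p = 0.00740). Aldh6a1, a dehydrogenase of valine breakdown, fell in control (-1.84 ± 0.64, adjusted p = 0.0430). In cdKO the 1 gene that rose of 9 was Bcat1, and 0 fell. The mTORC1 count of risers in control was 5 without control overload 1 and 1 without control sham 1 or 3 or control overload 2. In cdKO it was 1 without control sham 1 or 3, control overload 3 or cdKO sham 2, and 0 without cdKO sham 1 or 3 or cdKO overload 1 or 3. The fall of Aldh6a1 was lost without any one control sham library or control overload 2 or 3. No gene of the 9 lists passed in either genotype comparison or the interaction in edgeR.

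**Figure D4:**
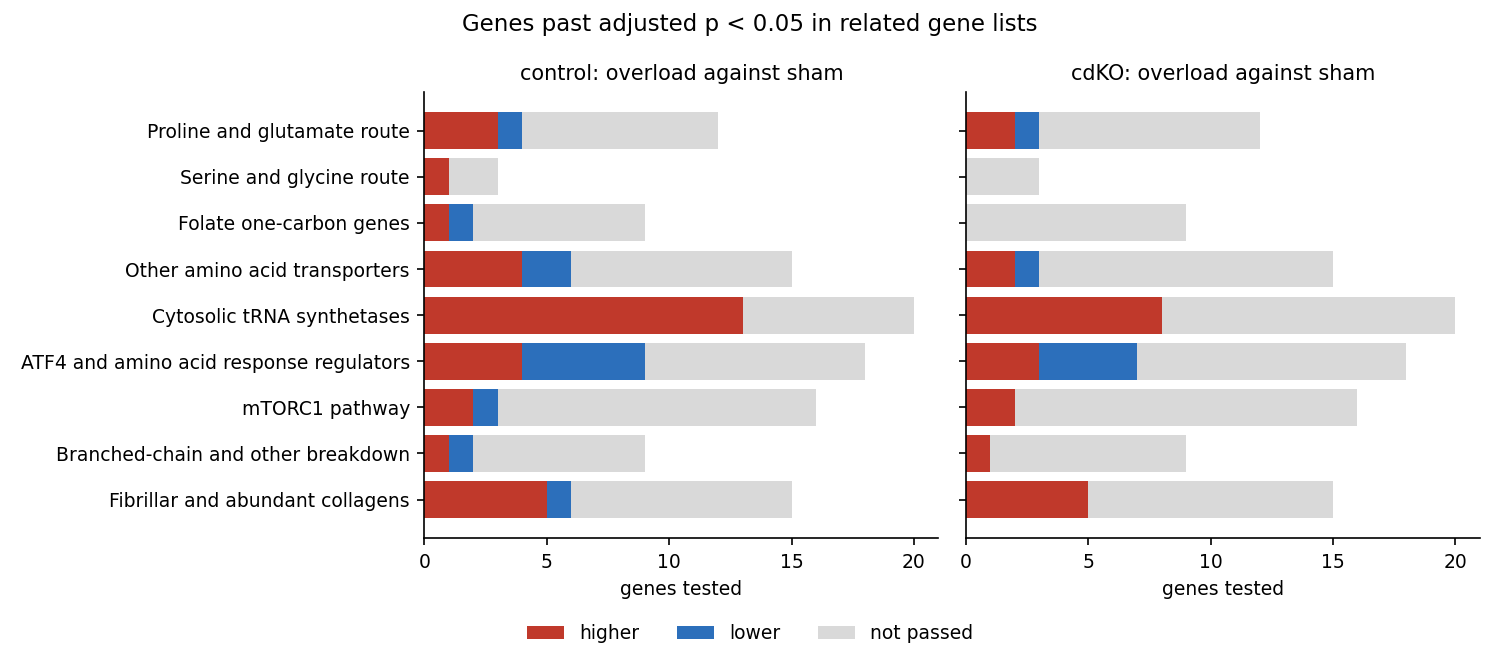
Number of tested genes (horizontal axis) that were higher, lower or did not pass under overload in each of 9 related gene lists, in control (left) and cdKO (right). Over all 8161 genes 10.6% were higher and 11% lower in control, and 6.37% and 6.68% in cdKO. The tRNA synthetase bar has 13 of 20 genes higher in control and 8 of 20 in cdKO with 0 lower in either, whereas the bar of ATF4 and amino acid response regulators is split between higher and lower.

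Collagen genes, whose products are rich in proline and glycine, rose in part. Of 15 tested collagen genes 5 rose and 1 fell in control, and 5 rose and 0 fell in cdKO. The medians were 0.55 and 0.42. Of all genes 10.6% rose and 11% fell in control, and 6.37% and 6.68% in cdKO. Col8a1 rose from 42.8 ± 12.3 to 490.3 ± 20.3 CPM in control (adjusted p = 7.26e-08) and from 97.4 ± 43.1 to 576.9 ± 70.4 in cdKO (adjusted p = 2.89e-06). Col12a1, which decorates collagen fibrils, rose by 1.87 ± 0.25 and 1.75 ± 0.25 in control and cdKO, and Col5a2, a fibril subunit, by 1.69 ± 0.25 and 1.18 ± 0.25. Col14a1 fell in control by 1.02 on the log2 scale (adjusted p = 0.00945), and the number of collagen genes that fell was 0 without control overload 3 and 3 without control overload 1.

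To set supply beside demand, shares among the residues encoded by the measured mRNA were computed for each library. They cover proline, glycine, serine, asparagine, leucine and glutamine. Each gene's CPM was multiplied by its residues (21482 genes with a coding sequence, which held 84% to 89.6% of counts). Proline made up 7.40%, 7.23% and 7.19% of encoded residues in control sham and 8.34%, 8.98% and 8.23% in control overload. In cdKO it made up 7.496%, 7.62% and 7.56% in sham and 9.01%, 8.88% and 8.96% in overload. All 6 overload libraries were above all 6 sham libraries. The mean rose from 7.41% to 8.73%, by 1.32 percentage points (exact permutation test, two-sided, load labels exchanged within genotype, p = 0.005, the smallest that its 400 arrangements can give). After adjustment over the 2 residues tested, p was 0.005. The residues tested, proline and glycine, are those in which collagens are rich, and collagen genes rose in these same libraries. The p-values for these shares are therefore no support independent of the collagen rise. With each gene weighted by CPM per protein length, as if counts did scale with length, the difference was 0.481 points.

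Glycine rose from a mean of 8.62% over the 6 sham libraries to 10.7% over the 6 overload libraries, by 2.06 percentage points (same exact test, p = 0.005, adjusted p = 0.005), and by 0.959 points with weights per protein length. Its group means were 8.38% ± 0.15 (SD, n = 3) without load and 10.4% ± 0.77 with overload in control, and 8.85% ± 0.02 and 10.9% ± 0.11 in cdKO. Control overload 2 gave the highest glycine share of the 12 libraries and cdKO overload 1 the highest proline share. Serine, with no test, went from 8.24% ± 0.10 to 7.62% ± 0.32 in control and from 8.20% ± 0.04 to 7.60% ± 0.15 in cdKO. Asparagine was 3.61% ± 0.04 and 3.59% ± 0.03 in control and 3.58% ± 0.03 and 3.55% ± 0.03 in cdKO. Leucine, also with no test, went from 8.726% ± 0.059 to 8.084% ± 0.156 in control and from 8.589% ± 0.032 to 7.895% ± 0.028 in cdKO. Glutamine went from 4.470% ± 0.013 to 4.227% ± 0.063 and from 4.451% ± 0.043 to 4.181% ± 0.060. The encoded leucine share was thus lower under overload, where the level of its carrier Slc7a5 was higher.

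Collagen mRNA encoded a large part of these residues. The 44 collagen genes held 22.7% ± 1.31 (SD, n = 3) of encoded prolines in control sham and 41.4% ± 4.80 in control overload, and 27.4% ± 1.02 and 44.8% ± 1.14 in the cdKO groups. Col3a1 alone contributed 0.758 of the 1.32 points for proline and 1.24 of the 2.06 points for glycine. Its encoded protein is 19.5% proline and 28.3% glycine, against 6.08% and 6.38% over all proteins. Without the collagen genes the overload difference was 0.05 points for proline (exact permutation p = 0.325) and -0.13 points for glycine (p = 0.06). The share counts residues per mRNA and takes no account of how often an mRNA is translated.

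**Figure D5:**
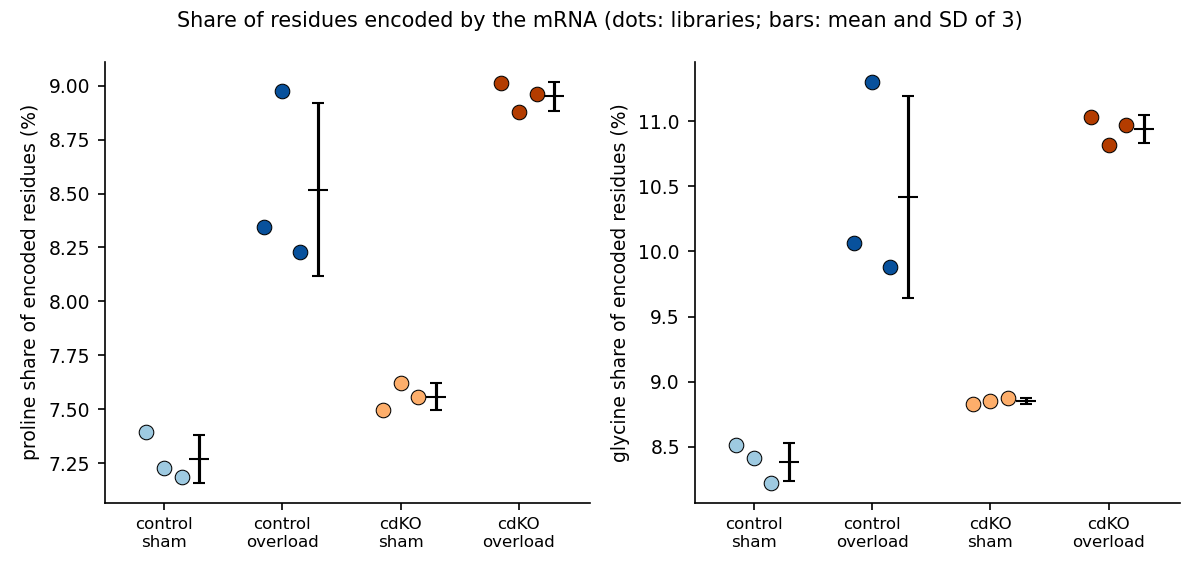
Share of proline (left) and glycine (right) among residues encoded by the mRNA of each library (vertical axes, percent, not starting at 0), by group; dots are libraries, and the bar beside them is the mean with its SD over 3 libraries. The 6 overload libraries lie above the 6 sham libraries for both residues.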

How the data were processed

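RNA was measured in 12 libraries of sorted Pdgfra-positive progenitors, 3 in each of 4 groups taken from the labels. The authors deposited raw counts per gene. The submitters' processing notes list GRCm38 and, in no stated order, featureCounts 2.0.1, HISAT2 2.2.1, DESeq2 1.26.0 and Trim Galore 0.6.6. The sources used here do not give the annotation, the strand setting or the use of molecular identifiers, so counting intervals cover counting error only. All 54100 gene identifiers matched GENCODE M21. Library pairs within groups differed by more than sampling noise.

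Counts were filtered by filterByExpr and scaled by TMM, and edgeR 4.0.16 (R 4.3.3) fitted 1 robust quasi-likelihood model to the 12 libraries, with a coefficient for each group. Tests are two-sided, and 8161 genes were adjusted together. The 5 comparisons were overload in each genotype, genotype under each load, and the interaction. Alternatives were DESeq2 1.42.0, limma 3.58.1 voom with quality weights, other scalings, no filter, a replicate block, a fit restricted to the compared groups, and fits without each library in turn. Chosen after seeing the data were 2 pairs of libraries left out and thinned counts. The same-numbered libraries did not correlate in every pair, so the numbers were not taken as a pairing. Residues came from GENCODE M21 coding sequences instead of the RefSeq proteins first planned, and transcript ends were compared with BLAST 2.17.0. Scripts were tested on simulated data.

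The members and lists were chosen with earlier results of these data known. Named were all 10 members, Yap1 and Wwtr1, up to 3 genes each way with the smallest p from each list among those past the threshold in control overload, any list gene past it in a genotype comparison or the interaction, and the 8 genes most like the members. Not every gene that this rule takes is reported here.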

Additional observations from a re-analysis of the deposited data

How the results depend on the processing

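Under 22 other fits the number of members called ranged from 4 to 7 for overload in control (6 as reported) and from 2 to 7 for overload in cdKO (6 as reported). The lowest cdKO count, 2, came with counts thinned to the smallest library, where 7 members had enough counts to be tested. Leaving out each library in turn gave 5 to 7 members in control and 3 to 7 in cdKO, with 3 without cdKO overload 1 or 3. For cdKO against control in overload it gave 0 to 1, where the 1 was Shmt2 without control overload 1. In sham and for the interaction 0 members were called in every fit run. Mthfd2 and Psat1 were called in both genotypes in every fit, and Shmt2 in control. Of 196 member values for overload in control 177 kept their direction and call, 16 lost the call and 3 gained it, and for cdKO these numbers were 169, 19 and 6, with 2 that changed sign without a call. No called member changed direction. Over all genes, other scalings shifted the median log2 change by -0.042 to 0.029. The numbers of the libraries were not taken as a pairing, although these data cannot exclude one. Correlations of same-numbered deviations were 0.10, 0.27 and 0.04 for control and 0.11, 0.20 and -0.11 for cdKO. In the control comparison each of the 3 libraries correlated best with its own number, as a hint from the data. With a replicate block 5 members were called in control and 6 in cdKO. Without collagen genes the proline difference was 0.0469 points (exact permutation p = 0.325) and the glycine difference reversed to -0.127 (p = 0.06). With weights per protein length the differences were 0.481 and 0.959 points. Depth limits Phgdh, Asns and Aldh18a1 most, and Phgdh could not be tested.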
